A study of Homo sapiens with 4 samples.

Results

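The genes described here encode the proteins of the cytosolic ribosome. They were taken by symbol, as RPL or RPS followed by a number and at most a letter A, X or L and a further digit, together with the stalk genes RPLP0, RPLP1 and RPLP2 and the laminin receptor gene RPSA. This rule found 84 of the 36601 features in the count tables, 52 of the large subunit and 32 of the small subunit. It used no measured value, and the symbols of the S6 kinases and of mitochondrial ribosomal proteins do not match it.

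Nuclei were isolated from enteric ganglioids, free-floating clusters of enteric neurons and their progenitors, made from the human embryonic stem cell line H9 by way of enteric neural crest. There were 2 control samples and 2 samples that had received 2 µM PP121, an inhibitor of tyrosine kinases and of PI3K-family kinases including mTOR, from day 15 to day 20 of differentiation. All samples shared the line, the medium and suspension culture, and each was a pool of ganglioids. The labels number the replicates of a group as differentiations, and whether the control and PP121 samples of 1 number share a differentiation is not stated. Replicate 1 of both groups is dated day 42 in the deposited annotation and replicate 2 day 38, so same-numbered samples share a day, and each day holds 1 control and 1 PP121 sample. All cells come from a single line, so differences between lines or donors were not sampled.

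Ribosomal proteins are made in near-equal numbers and assembled on ribosomal RNA in the nucleolus, after their own mRNAs have left the nucleus for translation in the cytoplasm. Their mRNAs are among the most abundant of any cell and usually begin with a run of C and T bases, the terminal oligopyrimidine (TOP) tract, through which mTOR signalling controls their translation. In nuclei, reads of these genes come from pre-mRNA, from mRNA on its way out and from cytoplasmic RNA that adheres to nuclei or is free in the droplets.

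The start of the transcript was examined first, since this tract is the sequence feature the family is known for. Of the 84 members, 67 have an entry in the RefSeq promoter table (GRCh38.p14), and 51 of these (76.1%) held an unbroken run of at least 7 C or T bases, on the strand of the gene, between 10 bases before and 10 bases after the annotated start. The share over all 27305 genes of the table was 17.0%. The run was found in 21 of 25 small-subunit members and 30 of 42 large-subunit members, in all 3 stalk genes, but in 1 of 5 paralogs, the near copies of ribosomal protein genes whose symbols mostly end in L. Outside the family it was found in 10 of 12 genes for translation factors and other TOP mRNAs, in 1 of 15 ribosome biogenesis genes and in 9 of 69 mitochondrial ribosomal protein genes. The windows below run from 15 bases before the annotated start to 15 bases from it, 5′ to 3′ on the strand of the gene, with the whole run in capitals, also where it goes on past the 10 bases searched, for the member with the most UMIs, for members whose values are followed below and for the pairs RPL22 and RPL22L1, and RPS27 and RPS27L.
RPL37A, chr2:216498829-216498858, plus strand: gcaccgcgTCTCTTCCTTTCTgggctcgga
RPS24, chr10:78033848-78033877, plus strand: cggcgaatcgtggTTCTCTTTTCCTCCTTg
RPS6, chr9:19380222-19380251, minus strand: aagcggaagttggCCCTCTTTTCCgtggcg
RPSA, chr3:39406705-39406734, plus strand: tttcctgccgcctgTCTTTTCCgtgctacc
RPL22, chr1:6199581-6199610, minus strand: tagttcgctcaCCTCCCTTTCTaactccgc
RPL22L1, chr3:170870181-170870210, minus strand: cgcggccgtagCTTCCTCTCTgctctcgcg
RPS27, chr1:153990747-153990776, plus strand: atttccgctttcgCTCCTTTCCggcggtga
RPS27L, chr15:63157463-63157492, minus strand: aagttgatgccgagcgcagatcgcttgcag
RPL22L1 was the paralog with a run. The window of RPS27L held none, which says only that these letters are absent around this annotated start.

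The 4 samples held 14812 annotated nuclei of 25306 deposited ones, between 2912 and 4587 per sample, with medians of 6289 to 7071 UMIs per nucleus. The samples shared between 0 and 8 cell barcodes in pairs. Summed markers of neurons stood at 1410 to 1859 CPM, counts scaled to an equal total of UMIs, in the nuclei deposited as enteric neurons and at 519 to 681 CPM in those deposited as progenitors, and summed progenitor markers at 40.5 to 49.0 and 92.1 to 120.2 CPM. Mesenchymal markers stood at 2143 to 2763 CPM in the mesenchymal class. Epithelial markers reached only 61.9 to 80.3 CPM in the class named epithelial, where neuron markers stood at 639 to 1435 CPM, so that label rests on weak markers. No targeted gene checks the treatment label.

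Members took 1326676 UMIs, 1.14% of those in annotated nuclei. RPL10L, a retrocopy of RPL10 known from testis, had 0 UMIs in every sample, and the other 83 members were detected. RPL37A, a zinc-finger protein of the large subunit, held the most with 41990 UMIs, followed by RPL3 with 38487, RPL11 with 34952, RPS19 with 31065 and RPL13 with 30003. The fewest after RPL10L belonged to paralogs. RPL3L, known from heart and skeletal muscle, had 123 UMIs, RPL39L 535, RPL22L1 902 and RPL26L1 1096. These are UMIs that were not divided by gene length, so the order is not one of mRNA levels, and ribosomal protein genes have many processed pseudogenes with which the counting could split reads. Large-subunit members took between 60.8% and 62.6% of member UMIs in neurons, in progenitors and in all nuclei of every sample.

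The share of a class's UMIs that fell on members is given from here on in the order control replicate 1, control replicate 2, PP121 replicate 1, PP121 replicate 2. In enteric neurons it was 1.00%, 0.948%, 0.985% and 0.783%. In the progenitor classes 1 and 2 together it was 1.08%, 1.01%, 1.85% and 1.29%. PP121 replicate 2 was the lowest sample in neurons, and both PP121 samples lay above both controls in progenitors. The mesenchymal class stood at 1.19%, 1.34%, 1.24% and 1.42% and the class called unknown at 0.815%, 1.00%, 0.903% and 1.01%, with overlapping groups in each. In the epithelial class, with 9 to 37 nuclei a sample, it was 1.17%, 0.913%, 1.03% and 1.11%.

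**Figure D1:**
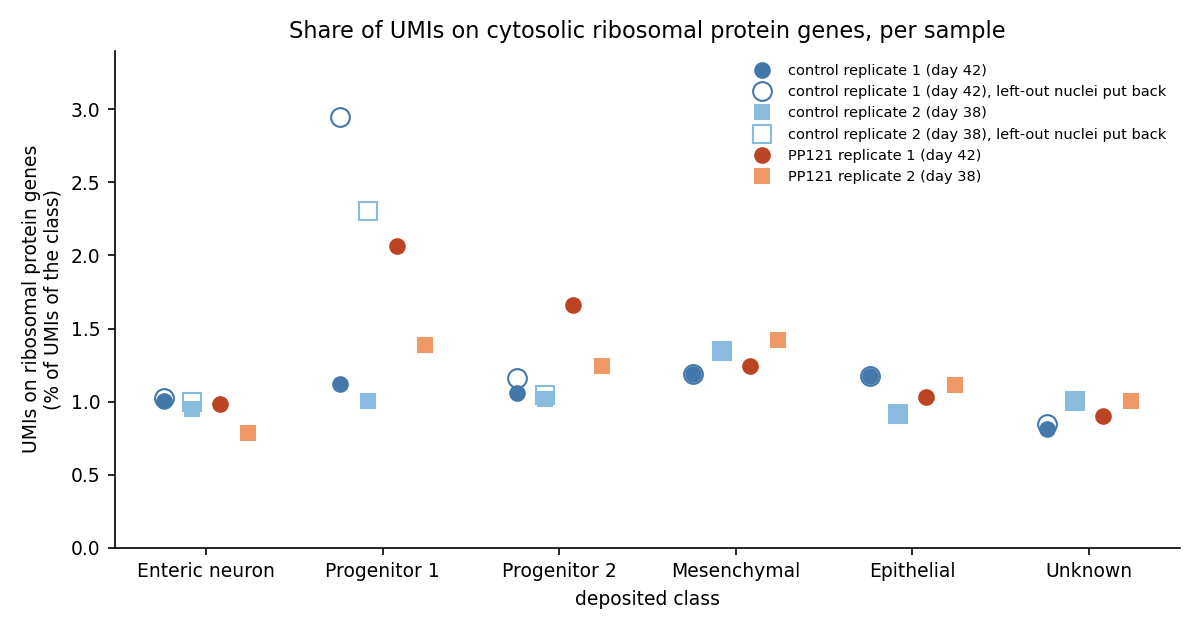
Share of UMIs on the 84 ribosomal protein genes (y axis, percent) in each deposited class (x axis). Each point is 1 sample, and open symbols are control samples after the nuclei that the annotation left out were put back. The filled PP121 points of both progenitor classes lie above the filled control points, and the open control points of Progenitor 1, at 2.94% and 2.30%, lie above both PP121 points.

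Classes were compared within each sample as a description without a test, because the authors drew them from the same counts after regressing out the ribosomal percentage. Of 83 members with enough counts, 50 were lower in neurons than in progenitors in all 4 samples, and 0 were higher in all 4, where 35.3% of all genes were lower in all 4 and 27% higher. The median log2 ratio of neurons to progenitors over members was −0.08 and −0.06 in the controls but −0.91 and −0.72 in the PP121 samples, while that over all genes lay between −0.12 and −0.01. These values depend on control nuclei that the annotation left out, most of them near Progenitor 1 and rich in member UMIs, as described below. With those put back, the medians over members in the controls were −0.88 and −0.72, near those of the PP121 samples. The median over all genes then lay between −0.12 and 0.02. This step was added for this ratio after seeing the data. In the annotated nuclei RPS27L, a close copy of RPS27, had among the largest ratios, at −0.88, −0.95, −1.52 and −1.15. RPS4X, the X-linked small-subunit protein, was higher in neurons in both controls, by 0.33 and 0.11, and lower in both PP121 samples, by −0.56 and −0.60. With the left-out nuclei put back, RPS4X was lower in neurons in both controls too. It then stood at 131.6 and 116.8 CPM there, against 171.7 and 172.2 in control progenitors.

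The PP121 samples were compared with the controls in annotated progenitors. The annotation left out control nuclei rich in member UMIs but no PP121 nuclei within the same limits, as described below. Tests in annotated progenitors therefore compare differently selected groups, and their p-values cannot separate PP121 from that selection. The summed share was 1.50 times the control share (1.57% ± 0.398 against 1.05% ± 0.0464, SD, n = 2), with ratios of 1.72 on day 42 and 1.27 on day 38. The difference of 0.526 percentage points had an exact two-sided permutation p of 0.333, the smallest that 2 against 2 samples allow. Without PP121 replicate 1 the difference was 0.244 points, and without PP121 replicate 2 it was 0.807. The rise did not run evenly through the nuclei. The median nucleus held 0.962%, 0.862%, 1.11% and 0.964%, and the 90th percentile 2.04%, 1.83%, 4.15% and 2.60%. At the median PP121 replicate 2 and control replicate 1 were nearly equal, and at the 90th percentile both PP121 samples lay above both controls. Nuclei with over 3% of their UMIs on members numbered 54, 27, 362 and 98, or 3.10%, 2.09%, 15.7% and 7.23% of progenitors.

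Gene by gene, 79 of 83 members tested had a higher estimate in PP121 progenitors, with a median log2 fold change of 0.59 against −0.01 over all genes. In edgeR's quasi-likelihood test with Benjamini-Hochberg adjustment 0 members passed, and 0% of all genes passed in either direction. At an unadjusted p under 0.05 there were 59 members, all higher, where 4.75% of all genes met that mark in either direction, and DESeq2 called 0 members (0.0866% of all genes higher and 0.0481% lower) with 63 at an unadjusted p under 0.05 (2.09% of all genes). Without the filter on low counts edgeR called 5 members, all higher, beside 0.628% of all genes. With the replicate number as a block, which pairs the samples by day, 29 members rose and 0 fell, beside 1.16% of all genes that rose and 0.558% that fell. These were 15 of 51 tested large-subunit members and 14 of 32 small-subunit members.

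The values in this paragraph are of annotated nuclei and carry the limit of that selection. RPS24, a small-subunit protein that is mutated in Diamond-Blackfan anaemia, had the largest called rise under the block. With the left-out control nuclei put back its groups overlapped, at 327.5, 276.3, 393.0 and 276.0 CPM. In annotated progenitors the level of RPS24 was 197.7, 179.5, 393.0 and 276.0 CPM, both PP121 samples above both controls. The log2 fold change was 0.80 with the block (SE 0.17 and an adjusted p of 0.00518 from edgeR) and 0.81 without it (adjusted p = 0.758 in edgeR's test). RPL32, of the large subunit, stood at 151.0, 145.1, 321.8 and 207.4 CPM, a rise of 0.80 (SE 0.18 and an adjusted p of 0.00815 from edgeR under the block). RPS27, a zinc-finger protein of the small subunit, stood at 174.5, 161.1, 382.3 and 216.7 CPM, a rise of 0.77 (SE 0.18 and an adjusted p of 0.0122 from edgeR under the block). In all 3 genes PP121 replicate 1 was the highest sample and the groups did not overlap. Without that sample, and without the block, the log2 fold change of RPS27 was 0.42 and that of RPL32 0.54, and without PP121 replicate 2 they were 1.13 and 1.06. Without the block the smallest p belonged to RPL23A, RPL22 and RPL36A, with log2 fold changes of 0.75, 0.76 and 0.71 and edgeR adjusted p of 0.665, 0.717 and 0.758.

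Other members followed by role were less distinct. Here too the values are of annotated nuclei and carry the limit of that selection. RPS6, the substrate of the S6 kinases that act below mTOR, stood at 120.7, 134.1, 201.3 and 204.9 CPM in progenitors. Its PP121 samples were nearly equal to each other (log2 fold change 0.67, SE 0.17 and an adjusted p of 0.0325 from edgeR under the block). With the left-out control nuclei put back, its controls stood at 192.5 and 190.2 CPM. The stalk genes RPLP0, RPLP1 and RPLP2, which recruit elongation factors to the ribosome, had log2 fold changes of 0.52, 0.56 and 0.51 with the block, and 0 of 3 passed. RPL5 and RPL11, which bind the small rRNA of the large subunit and hold back MDM2 when assembly fails, had values of 0.40 and 0.54 and edgeR adjusted p of 0.390 and 0.104 with the block. RPS27A, which is translated as a fusion with ubiquitin, and RPL41, the shortest of the ribosomal proteins, had values of 0.62 and 0.61 with adjusted p of 0.0600 and 0.0548. RPL37A and RPL3, which hold the most UMIs, had 0.21 and 0.33 and did not pass.

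The paralogs are described apart. Of 6 tested, 0 passed with or without the block, and their median was −0.07 with either fit. RPS27L stood at 155.9, 179.1, 188.9 and 98.3 CPM in progenitors, with the PP121 samples on either side of the controls, and RPL7L1 at 45.6, 42.8, 45.3 and 42.4 CPM. The share of RPS27L among the UMIs of RPS27 and RPS27L was 47.2%, 52.6%, 33.1% and 31.2%, lower in both PP121 samples (difference −17.8 points, exact permutation p = 0.333, the smallest possible). The share of RPL7L1 with RPL7 was 29.7%, 28.4%, 20.6% and 21.7%, also lower in both.

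Other genes of translation were set beside the members as whole lists. With the block, 0 of 19 translation factors and other TOP mRNAs passed in progenitors (median log2 fold change 0.29), with RACK1, a scaffold protein of the small subunit, at 0.57 and EEF1A1, the elongation factor that delivers tRNA, at 0.53. Of 20 ribosome biogenesis genes 0 passed (median −0.06), of 9 tested genes of growth signalling to the ribosome 0 passed (median −0.05), and of 78 mitochondrial ribosomal protein genes 0 passed (median −0.02). Of 20 abundant cytosolic mRNAs 1 rose, GAPDH of glycolysis, with a log2 fold change of 1.11 (SE 0.18 and an adjusted p of 9.9e-05 from edgeR). Of the 13 mitochondrially encoded transcripts 7 fell, with a median of −0.86, and NEAT1, a noncoding RNA of nuclear bodies, fell by 0.62.

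**Figure D2:**
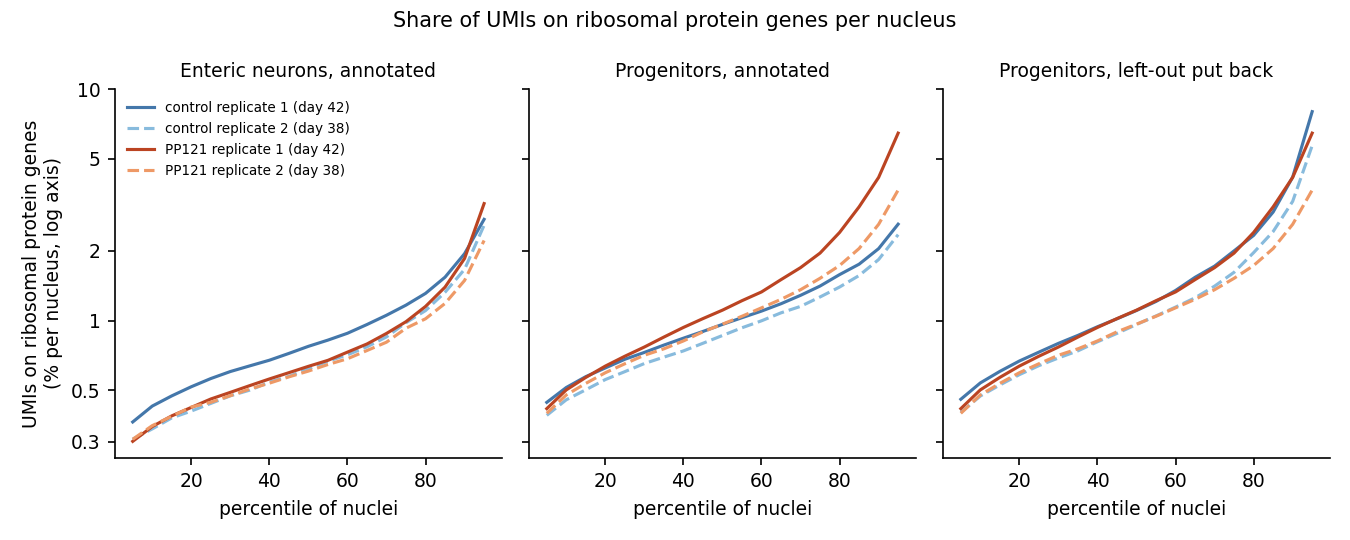
Share of UMIs on ribosomal protein genes per nucleus (y axis, percent, log scale) at the 5th to 95th percentile of nuclei (x axis) for each sample, in annotated neurons, in annotated progenitors and in progenitors with the left-out control nuclei put back. The PP121 curves of annotated progenitors leave the control curves at the upper percentiles, with 4.15% and 2.60% against 2.04% and 1.83% at the 90th, and the control curves reach 4.16% and 3.27% there once the nuclei are put back.

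The annotation bears on this comparison. The authors left out 372 nuclei from control replicate 1 and 196 from control replicate 2 that lay within their limits on features, UMIs and mitochondrial percentage. From the PP121 samples they left out none within those limits. Their methods name a higher than average ribosomal percentage among the reasons to remove a cluster. Their supplement lists a removal for high ribosomal percentage among all cells of the control set. It lists none among all cells of the control and PP121 set together, and such a removal for the neurons of each set. Whether the left-out nuclei are the removed control clusters is not stated. The members' share in annotated controls thus depends on which nuclei were left out, and may itself have been selected on. Members made up 6.46% and 6.13% of the UMIs of the nuclei left out, and 70.7% and 72.4% of these nuclei had over 3%. By their nearest annotated neighbours 354 and 187 of them were closest to Progenitor 1.

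Of 83 members with enough counts, 80 were higher in the left-out nuclei than in annotated progenitors of the same sample in both controls, and 0 lower, where 23.1% of all genes were higher in both. If these nuclei are the clusters removed for ribosomal percentage, members were part of the reason for removal, so this is a description. RPS27 stood at 1576 and 1520 CPM there against 174.5 and 161.1 in annotated progenitors, the largest mean log2 ratio of the members, 3.20. RPL7L1 at 43.9 and 46.3 CPM and RPL39L at 6.27 and 5.95 CPM stayed near their level in annotated progenitors. The median log2 ratio over members was 2.59 in both samples, that over translation factors and other TOP mRNAs 2.05 and 2.11, over abundant cytosolic mRNAs 1.46 and 1.33, over ribosome biogenesis genes 0.26 and −0.14 and over all genes −0.55 and −0.71. MALAT1, NEAT1 and MEG3, which stay in the nucleus, made up 13.4% and 16.2% of their UMIs, against 7.09% and 5.96% in annotated progenitors.

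With these nuclei put back, the control progenitors held 1.89% and 1.67% on members, and the PP121 samples, unchanged, 1.85% and 1.29%. The ratio fell to 0.881 and the difference to −0.213 percentage points (exact permutation p = 0.667), and the median log2 fold change over members was −0.21 with 75 of 83 negative. In edgeR's test 0 members passed (0% of all genes), and 1 had an unadjusted p under 0.05, where 6.23% of all genes did. With the block as well, an alternative chosen after seeing the data, 1 member fell, beside 0.647% of all genes. It was RPSA, the laminin receptor and small-subunit protein, at 238.5, 212.5, 172.3 and 126.0 CPM, with a log2 fold change of −0.65 (edgeR adjusted p = 0.0373). RPS24 stood at 327.5, 276.3, 393.0 and 276.0 CPM after this step, and its groups overlapped. The share of RPS27L in its pair became 32.8% and 39.4% in the controls, with PP121 replicate 1 between them. That of RPL7L1 became 21.3% in both, between the PP121 samples. In Progenitor 1, to which most of the nuclei were returned, the PP121 to control ratio became 0.658 (1.62 before). Progenitor 2, to which few nuclei were returned, kept a ratio of 1.32 (1.40 before).

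The opposite step, also chosen after seeing the data, removed from every sample the annotated nuclei whose nearest control neighbours were mostly nuclei that had been left out. These were 37, 29, 227 and 38 progenitors, with 1.54%, 1.19%, 7.09% and 5.86% of their UMIs on members. Without them the share in progenitors was 1.07%, 1.01%, 1.42% and 1.18%, with both PP121 samples still above both controls (ratio 1.25, exact permutation p = 0.333). The ratio was 1.27 in Progenitor 1 and 1.23 in Progenitor 2. The median log2 fold change over members was 0.33, 0 of 83 passed in edgeR's test and 21 had an unadjusted p under 0.05, where 5.3% of all genes did. With the block 3 rose, RPS24 by 0.57, RPL22 by 0.55 and RPL32 by 0.52 (edgeR adjusted p = 0.0179, 0.0457 and 0.0455), beside 1.83% of all genes. The neighbour rule recovered 283 of the 372 and 141 of the 196 left-out nuclei when these were held out, so it is not complete. How large the difference would be with the same removal in both groups was not tested beyond these steps.

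**Figure D3:**
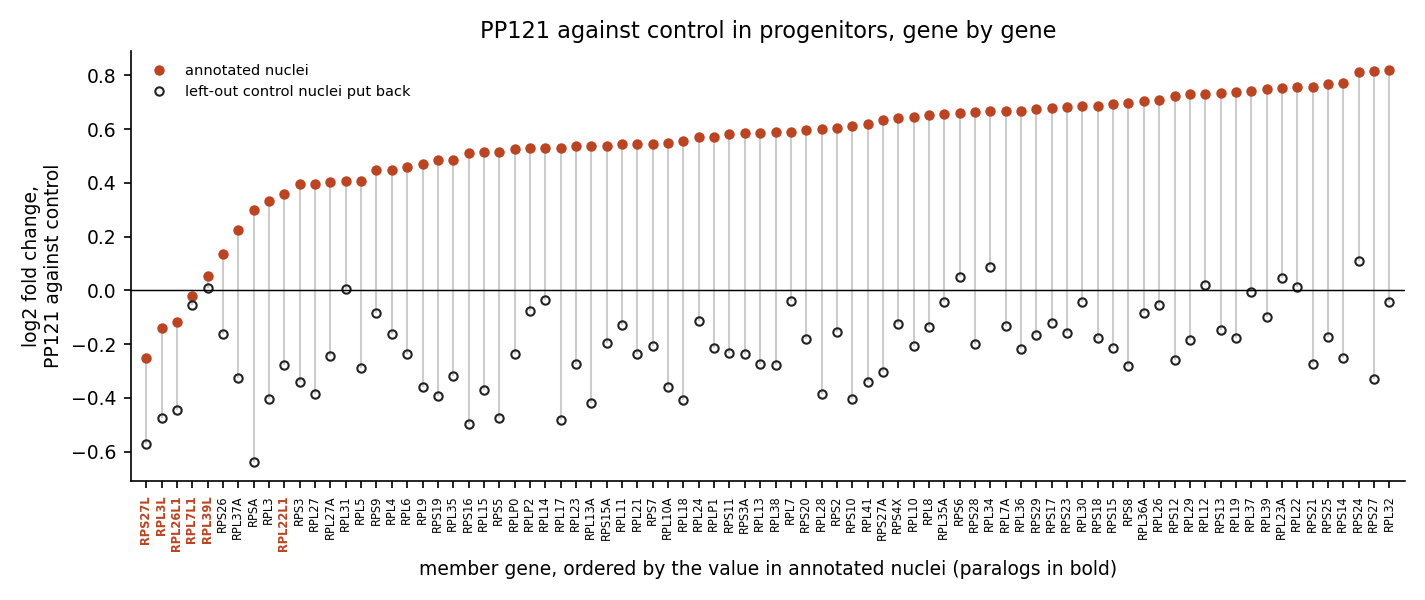
Log2 fold change of PP121 against control progenitors (y axis) for 82 of the 83 members tested (x axis, ordered by the value in annotated nuclei, with paralogs in bold). Filled points are annotated nuclei and open points the same fit after the left-out control nuclei were put back, and the medians over the 83 members are 0.59 and −0.21.

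In enteric neurons the summed share was 0.884% ± 0.143 with PP121 and 0.976% ± 0.0385 in control (SD, n = 2), with overlapping groups (difference −0.0915 percentage points, exact permutation p = 0.667). The median log2 fold change over 82 members tested was −0.10 against −0.002 over all genes. Without PP121 replicate 2 both turned, to 0.00984 percentage points and a median of 0.04, and without PP121 replicate 1 they were −0.193 and −0.24. In edgeR's test 0 members passed, beside 0% of all genes, with 3 members at an unadjusted p under 0.05, all lower, where 12% of all genes were, and DESeq2 called 0 (0.221% of all genes higher and 0.0853% lower) with 3 at that mark (4.96% of all genes). With the replicate block 5 members fell, beside 6.86% of all genes that fell and 7.98% that rose, so members were called no more often than other genes. With the nuclei put back the count was 5 as well, beside 6.44%, and with like nuclei removed 5, beside 5.47%, both steps chosen after seeing the data.

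RPS27L had the largest of these falls. It stood at 84.7, 92.4, 65.6 and 44.0 CPM in neurons, both PP121 samples below both controls, with a log2 fold change of −0.66 under the block (SE 0.12 and an adjusted p of 0.000518 from edgeR, which gave 0.377 without it). RPL15, of the large subunit, stood at 157.3, 120.8, 113.8 and 85.1 CPM (−0.45, SE 0.10 and an adjusted p of 0.00178 from edgeR under the block), and RPSA at 134.0, 109.7, 97.1 and 80.3 CPM (−0.42, SE 0.10, adjusted p = 0.00374 with the block). In each of the 3 genes the groups did not overlap and PP121 replicate 2 was the lowest sample. With 1 sample left out and without the block, RPS27L ranged from −0.94 without PP121 replicate 1 to −0.42 without PP121 replicate 2, and RPL15 from −0.64 without PP121 replicate 1 to −0.27 without control replicate 1 and −0.28 without PP121 replicate 2. RPL37A and RPL17 of the large subunit fell by 0.34 and 0.29 with the block. When neurons were taken from clusters made over all samples, which moved 523 nuclei of the deposited Progenitor 1 class into a neuron cluster, the value of RPS27L without the block was −0.37 and that of RPSA −0.32.

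The share of RPS27L in its pair was 33.9%, 36.6%, 25.9% and 25.9% in neurons, and 33.5% and 35.4% in the controls with the left-out nuclei put back, so both PP121 samples were lower either way (exact permutation p = 0.333). RPS27 itself stood at 165.3, 160.2, 187.2 and 125.6 CPM in neurons. Of the other lists, 3 of 19 translation factors and other TOP mRNAs fell with the block, among them BTF3, which binds nascent chains, by 0.44, and 3 of 20 ribosome biogenesis genes, among them RRN3, a factor of RNA polymerase I, by 0.51. MTOR fell by 0.36 (edgeR adjusted p = 0.0143), the only called gene of 9 in growth signalling. Abundant cytosolic mRNAs fell in 8 of 20 and rose in 1, mitochondrial ribosomal protein genes fell in 9 of 78, and mitochondrially encoded transcripts in 11 of 13. Mitochondrial UMIs were 0.0364%, 0.0384%, 0.0160% and 0.0202% of the total in neurons, and their part in these values was not tested.

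The effect of PP121 in neurons and in progenitors was compared with the sample as a block. All 83 members had a lower effect in neurons, with a median difference of −0.68 on the log2 scale against 0.01 over all genes, and 78 had an unadjusted p under 0.05 where 9.74% of all genes did. With the adjustment 0 passed in edgeR (0% of all genes), where RPS24 (−0.90) and RPL32 (−0.91), among the members with the smallest p, had an adjusted p of 0.119, while DESeq2 called 39 members, all lower, beside 0.148% of all genes lower and 0.0861% higher, with 75 at an unadjusted p under 0.05 (2.26% of all genes). Without the filter edgeR called 68, beside 0.873% of all genes. With the left-out nuclei put back, a step added after seeing the data for this comparison, the median difference was 0.06, 0 members passed (0% of all genes) and 0 had an unadjusted p under 0.05 in edgeR's test, where 6.32% of all genes did.

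Over all annotated nuclei the summed share was 1.02%, 1.03%, 1.36% and 1.10%, above the controls in both PP121 samples (exact permutation p = 0.333). The difference of 0.205 percentage points was 0.0734 without PP121 replicate 1 and 0.337 without PP121 replicate 2. With the nuclei put back the controls stood at 1.38% and 1.32%, and the sign changed. In edgeR's test 0 members passed (0% of all genes), with 15 at an unadjusted p under 0.05, all higher, beside 4.61% of all genes, and DESeq2 called 0 (0.131% higher and 0.0213% lower) with 11 (2.87%). The smallest p belonged to RPL37 (0.49), RPL22 (0.43) and RPL36A (0.41), with an edgeR adjusted p of 0.931 each, and with the block 0 members passed (0.709% of all genes higher and 0.174% lower) and 36 had an unadjusted p under 0.05 (14% of all genes).

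The days were compared across treatments. Day and replicate number coincide in both groups, and the labels number replicates as differentiations. A difference between the days therefore cannot be told apart from one between differentiations. The summed share was 0.129 percentage points higher on day 42 than on day 38 in neurons, where the groups did not overlap (exact permutation p = 0.333), and 0.314 points higher in progenitors, where they did (p = 0.667 in the exact permutation test). Without PP121 replicate 2 the difference in neurons was 0.0458 points. In progenitors it turned to −0.0730 points without PP121 replicate 1 and was 0.701 without control replicate 1 and 0.176 without control replicate 2. In the mesenchymal class it was lower on day 42, by −0.168 points. Gene by gene, edgeR called 0 members in neurons (0% of all genes), 0 in progenitors (0%) and 0 over all annotated nuclei (0.0539% of all genes higher and 0.667% lower), with 0 members at an unadjusted p under 0.05 in any of the 3 sets, where 7.41%, 11.1% and 13.2% of all genes were. DESeq2 called 0 members in each, beside 0.0948%, 0.115% and 0.493% of all genes higher and 0.0853%, 0.221% and 1.54% lower, with 0, 1 and 0 members at that mark (3.31%, 4.82% and 7.44% of all genes). With the treatment as a block 3 members were higher on day 42 in neurons, beside 3.68% of all genes.

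Of these RPL18, of the large subunit, stood at 147.9 and 138.5 CPM on day 42 and 123.5 and 89.3 on day 38 in neurons (log2 fold change 0.38, SE 0.10 and an adjusted p of 0.0134 from edgeR under the block). RPS16, of the small subunit, stood at 98.9 and 94.9 against 87.1 and 58.1 CPM (0.38, SE 0.11, adjusted p = 0.0320). In both the days did not overlap, and PP121 replicate 2 was far below the other 3 samples. Without it, and without the block, the values were 0.17 for RPL18 and 0.11 for RPS16, and without control replicate 2 they were 0.59 and 0.65. RPL15, the remaining call, had overlapping days. Mesenchymal markers summed to 12.4 and 9.62 CPM in neurons on day 42 and to 43.6 and 48.9 on day 38, with none of the 7 at 0, and their part was not tested.

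The nuclei were next compared by the deposited cell cycle phase, which scores each nucleus with lists of S and G2M genes that hold no member. A phase call alone does not show that a nucleus was cycling. In neurons the summed share was 0.881%, 0.946%, 0.943% and 0.760% in G1, 1.07%, 0.815%, 0.999% and 0.743% in S, and 1.40%, 1.45%, 1.28% and 0.961% in G2M. G2M was the highest phase in all 4 samples, by 0.390 percentage points over G1 on average (SD 0.152, n = 4, sign-flip exact permutation p = 0.125, the smallest that 4 differences allow). G2M nuclei were 142 to 265 per sample and shallower than G1 nuclei in each sample, so nuclei were also thinned to 2000 UMIs. The G2M share was then 1.43%, 1.25%, 1.36% and 1.11%, against 0.931%, 0.851%, 0.957% and 0.796% in G1, with 0 to 4 shallower nuclei left out per sample and phase in these phases.

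**Figure D4:**
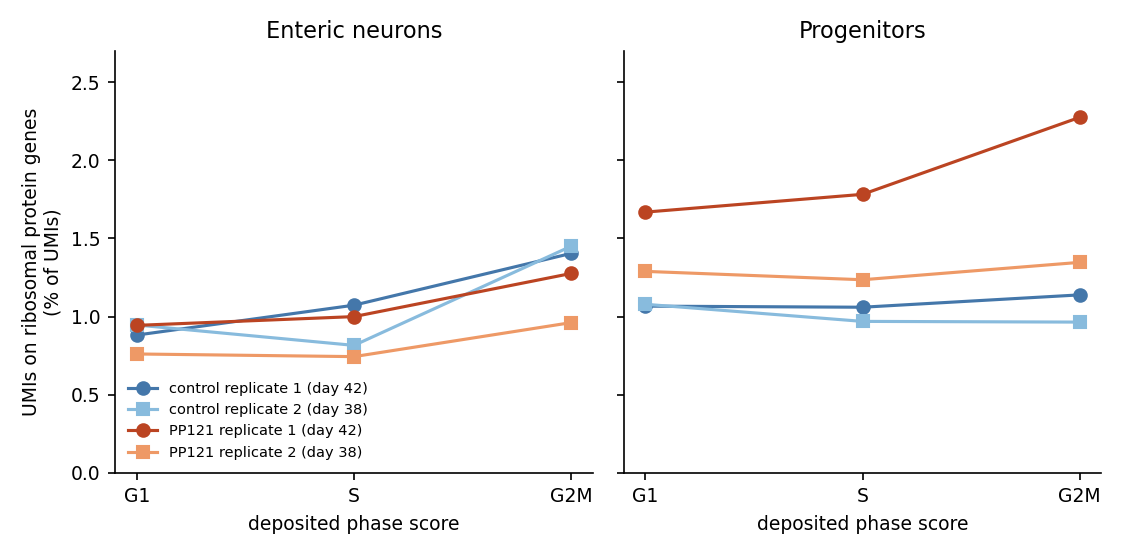
Share of UMIs on ribosomal protein genes (y axis, percent) by deposited phase (x axis) in enteric neurons and in progenitors, with 1 line per sample. All 4 lines of the neurons are highest at G2M, between 0.961% and 1.45%, and in progenitors the line of PP121 replicate 1 rises to 2.27% while the other lines differ between G1 and G2M by at most 0.114 points in size.

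In neurons 75 of 82 members tested rose from G1 to G2M and 0 fell in edgeR's test with the sample as a block, where 10.7% of all genes rose, and their median log2 fold change was 0.48 against −0.01 over all genes. These were 45 of 50 large-subunit and 30 of 32 small-subunit members, and the estimate was positive in all 82. With the thinned nuclei 63 members rose, beside 5.54% of all genes, and each of the 63 was among the 75. With each sample left out in turn the median over members ranged from 0.43 to 0.56.

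RPS27L had the largest rise among members with at least 10 CPM. Its level in neurons was 67.4, 70.2, 55.7 and 38.8 CPM in G1 and 140.5, 145.8, 92.7 and 51.8 in G2M, higher in 4 of 4 samples, with a log2 fold change of 0.85 (SE 0.11 and an adjusted p of 1.4e-05 from edgeR). RPS25, a small-subunit protein used by some viral internal ribosome entry sites, rose from 79.8, 82.9, 87.6 and 62.8 to 151.8, 129.6, 113.6 and 114.1 CPM (0.68, SE 0.10 and an adjusted p of 5.4e-05 from edgeR), and RPS27A from 131.3, 128.0, 124.5 and 104.9 to 243.4, 210.6, 191.7 and 146.5 CPM (0.67, SE 0.09, adjusted p = 1.8e-05). RPL22L1, at 3.31 to 6.75 CPM over all phases, rose by 0.86 (adjusted p = 0.0452). The stalk genes RPLP0, RPLP1 and RPLP2 rose by 0.41, 0.37 and 0.47, RPL5 and RPL11 by 0.42 and 0.47, RPS6 by 0.57 and RPSA by 0.56. The 7 tested members that did not pass were RPL7L1, RPL26L1, RPL39L, RPL31, RPL35A, RPS10 and RPS26, 3 of them paralogs.

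**Figure D5:**
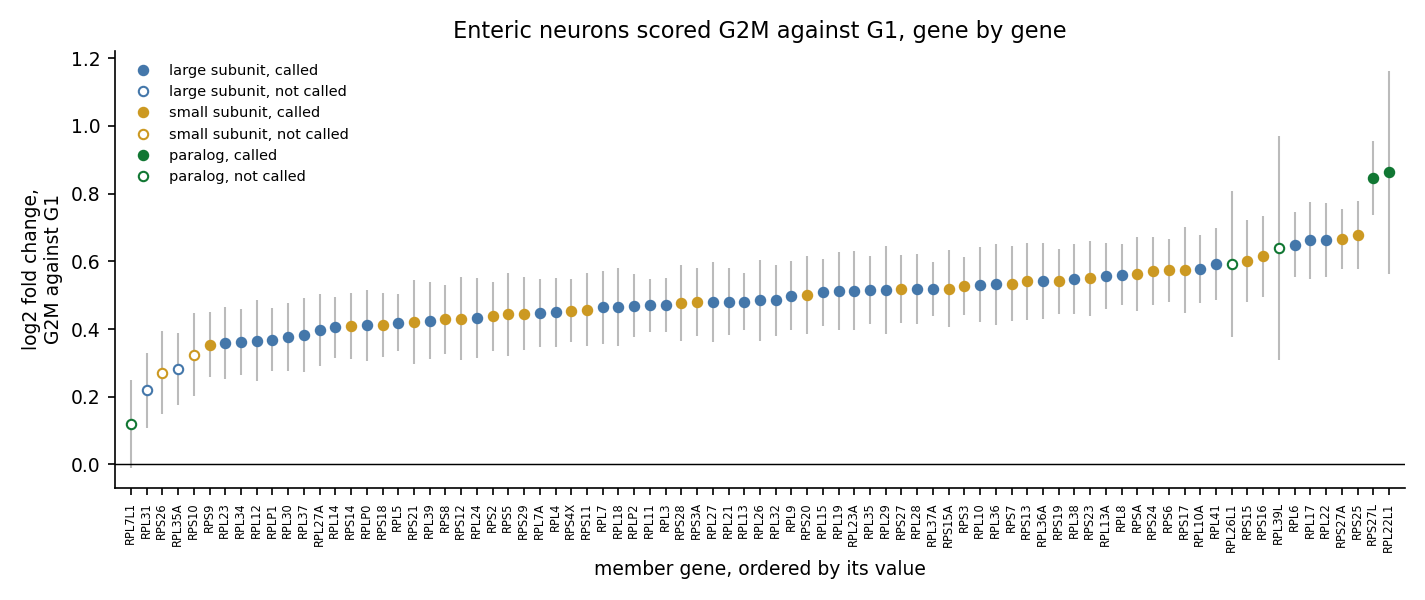
Log2 fold change of G2M against G1 in enteric neurons (y axis, bars are standard errors) for 81 of the 82 members tested (x axis, ordered by value). Colours mark large subunit, small subunit and paralogs, and filled points passed the edgeR test at an adjusted p under 0.05. All points lie above 0, and the 7 open points lie mostly at the low end.

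The rise was shared by genes outside the family. In G2M neurons 18 of 19 translation factors and other TOP mRNAs rose (median log2 fold change 0.46), led by NACA, a nascent chain binding protein, at 0.64 and RACK1 at 0.56. Of 20 abundant cytosolic mRNAs 13 rose (median 0.40), of 20 ribosome biogenesis genes 5 (median 0.25), among them the nucleolar proteins NOP58 at 0.62 and NCL at 0.34, and of 76 mitochondrial ribosomal protein genes 18 (median 0.25). Mitochondrially encoded transcripts fell in 6 of 13. Members with and without the tract had medians of 0.51 and 0.48, over 51 and 15 members. MALAT1, NEAT1 and MEG3 together rose from 5.73%, 5.58%, 3.95% and 3.97% of UMIs in G1 to 8.55%, 7.69%, 4.72% and 4.16% in G2M.

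Markers moved too. Summed neuron markers were 1475, 1502, 1538 and 1951 CPM in G1 neurons and 1254, 1307, 1333 and 1812 in G2M neurons, lower in 4 of 4, and 2 of 7 fell (SYT1 by 0.27 and STMN2 by 0.30). Summed progenitor markers were 38.9, 40.1, 42.7 and 38.2 CPM in G1 and 52.4, 84.6, 80.9 and 93.9 in G2M, with none of the 7 at 0. Of the 5 tested, MKI67, itself a G2M gene, and SOX2 rose. The part of progenitor-like nuclei, of free RNA and of depth in the rise of the members was not tested beyond the thinning.

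In progenitors 19 of 83 members rose from G1 to G2M and 0 fell, beside 14.3% of all genes, with a median of 0.14. The summed share changed by 0.0720, −0.114, 0.606 and 0.0577 percentage points, so that PP121 replicate 1 stood apart (mean 0.156, SD 0.312, sign-flip exact permutation p = 0.5). Without that sample fewer members passed, the median was 0.0026 and RPL15, named next, stood at 0.18. With nuclei thinned to 2000 UMIs 19 rose, beside 10.3% of all genes, and 10 of these were among the 19 called before. RPS27L went from 143.0, 161.1, 158.6 and 84.4 CPM in G1 to 189.4, 202.8, 222.9 and 111.0 in G2M, higher in 4 of 4 samples (0.42, SE 0.07 and an adjusted p of 6.0e-05 from edgeR). RPL15 and RPL10A rose by 0.32 and 0.27 (adjusted p = 0.00840 and 0.00689 in edgeR's test). Summed neuron markers were 787, 564, 620 and 699 CPM in G1 progenitors and 616, 426, 554 and 649 in G2M progenitors, lower in 4 of 4, and STMN2 and SYT1 fell by 0.51 and 0.29. Summed progenitor markers were 88.3, 74.8, 80.5 and 85.9 CPM in G1 and 172.5, 147.4, 183.6 and 185.8 in G2M, where MKI67 rose. The part of these markers in the members' values was not tested. Among the other lists 10 of 19 translation factors and other TOP mRNAs, 8 of 20 ribosome biogenesis genes and 11 of 20 abundant cytosolic mRNAs rose.

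From G1 to S the members changed little. In neurons 1 of 82 rose, beside 1.18% of all genes, and this was RPS27L again, at 67.4, 70.2, 55.7 and 38.8 CPM in G1 and 95.1, 110.2, 83.2 and 55.1 in S (0.50, SE 0.10 and an adjusted p of 0.00485 from edgeR). Without control replicate 2 it did not pass. The median over members was −0.02. In progenitors 0 of 83 passed in edgeR's test, beside 4.15% of all genes higher and 4.89% lower, with 2 at an unadjusted p under 0.05 (22.5% of all genes). DESeq2 called 0 as well (1.68% and 1.9% of all genes), with 1 at that mark (8.54%). The smallest p belonged to RPS27L (0.19, edgeR adjusted p = 0.0752), then to RPS26 (0.23, 0.187) and RPS3 (−0.16, 0.230). RPS27L was higher in S than in G1 in 4 of 4 samples in progenitors too.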

How the data were processed

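Nuclei from 4 samples of ganglioids were profiled with droplet single-nucleus RNA-seq from the 3′ end of transcripts. The deposited tables hold raw UMI counts per gene and nucleus, and the deposited annotation gives class, phase and day for the nuclei the authors kept, with the percent of UMIs on mitochondrial genes and on all symbols starting with RPL or RPS, the latter including 19 features that are not members. The submitters' processing notes name Cell Ranger, Seurat 4.0.4 and GRCh38, while the study's methods name kallisto and bustools, and whether intronic reads were counted is not given in the sources used here. The authors removed clusters of low quality and regressed out depth, phase scores, mitochondrial and ribosomal percentage before clustering. Columns of other comparisons were not used.

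Members and lists were chosen with earlier results of these data known. Counts were summed per sample and class, or per sample, class and phase, and 11 comparisons were fitted across all genes with edgeR 4.0.16 in R 4.3.3 (quasi-likelihood test, TMM, filterByExpr) at a Benjamini-Hochberg adjusted p of 0.05. Depth was 23348045 to 34123759 UMIs per sample. Fits of treatment or day had no block and 2 residual degrees of freedom, and phase fits had the sample as a block. The standard error is the size of the log2 fold change divided by the square root of F. The replicate number pairs samples by the deposited day, and same-day samples deviated together (correlation 0.522 over all nuclei, 0.411 in neurons and 0.274 in progenitors), so values with the block, which leaves 1 residual degree of freedom, stand beside the others where calls change. Per the labels the replicates of a group are differentiation replicates, and p-values measure the spread between these few samples. DESeq2 1.42.0, no filter, a minimum of 10 counts, library size alone, left-out samples, joint clusters, nuclei thinned to 2000 UMIs and nuclei put back by their 15 nearest annotated neighbours were alternatives. Removing nuclei like those left out, putting nuclei back together with the block, and putting them back for the comparisons between classes, were chosen after seeing the data. Class ratios added 0.5 CPM and needed 10 counts.

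Genes named are, per comparison, the 3 largest rises and 3 largest falls among members called, at a mean of at least 10 CPM and with groups that do not overlap, or else the 3 smallest p, besides the stalk, RPSA, paralogs, RPL5, RPL11, RPS6, RPS4X, RPS27A, RPL41, RPL13, RPS2, the members with the most and fewest UMIs and 2 genes per other list. RPL17, the members that did not pass from G1 to G2M, and RPL22 and RPSA in the added alternatives were named after their values were seen. A gene that this rule would also name is not reported here and is not plotted. Shares of UMIs were compared by exact permutation over samples. No doublet caller was run. Start-site windows are from RefSeq on GRCh38.p14. The fits were tested on simulated data. Python 3.11.15, numpy 2.4.6, scipy 1.17.1, scikit-learn 1.9.0 and matplotlib 3.10.9 were used.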

Additional observations from a re-analysis of the deposited data

Results flagged for a closer look

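The PP121 difference in the summed share of members was lower in neurons than in progenitors by −0.617 percentage points, lower than in the mesenchymal class by −0.159 and lower than in the class called unknown by −0.137, since both days moved down in neurons and up in the others. These differences of the summed share were not tested themselves. The member-wise test of neurons against progenitors called 0 members with edgeR, and 39 with DESeq2. With the left-out control nuclei put back, a comparison chosen after seeing the data, the PP121 difference was −0.127 points in neurons and −0.213 in progenitors. The first of these differences then turned to 0.0860 points, while those from the mesenchymal and unknown classes were −0.194 and −0.156. The member-wise test then had a median of 0.06, with 61 of 83 members positive and 0 at an unadjusted p under 0.05 in edgeR.

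Between day 42 and day 38 the summed share went up in neurons and progenitors under both treatments and down in the mesenchymal and unknown classes. The gap between the day differences was 0.297 points for neurons against mesenchymal nuclei and 0.275 against unknown nuclei. It was 0.482 and 0.461 points for progenitors against the same classes. Day cannot be told apart from replicate number here. These gaps were not tested either, and the mesenchymal class held 33 to 422 nuclei a sample.

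Nuclei outside the annotation also held members. Those within the authors' limits stood at 6.46% and 6.13% of UMIs in control replicates 1 and 2. Those beyond the limits, 1620 to 3876 nuclei a sample, stood at 2.13% and 1.86% in the controls and at 2.07% and 2.14% in the PP121 samples, above the shares of annotated nuclei in each sample.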

How the results depend on the processing

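With 2 samples a group the sign of a summed share can rest on a single library or on which nuclei are kept. Putting the left-out nuclei back changed the summed PP121 difference to −0.119 percentage points over all nuclei and −0.213 in progenitors. Taking the median nucleus of the annotated sets instead gave 0.0248 and 0.125. Putting the nuclei back also turned RPL36A over all nuclei (−0.0075, with the block −0.0053). In progenitors it turned RPL36A (−0.0839 and −0.0852), RPL32 (−0.0447 and −0.0681) and RPS27 (−0.33 and −0.37). The replicate block raised the count of called members from 0 to 5 in neurons, all lower, beside 6.86% of all genes. There members were called no more often than other genes. In progenitors it raised the count to 29, all higher, beside 1.16% of all genes. With nuclei put back as well it gave 5 and 1 lower (6.44% and 0.647% of all genes). With like nuclei removed it gave 5 lower and 3 higher (5.47% and 1.83%). Without the filter on low counts 5 members were called in progenitors (0.628%). The treatment block gave 3 in the day comparison of neurons (3.68%). Between neurons and progenitors DESeq2 called 39 (0.148%) and edgeR without the filter 68 (0.873%). In S progenitors a call appeared with library size alone. The cause of these changes was not tested.

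Leaving out each sample in turn gave 0 to 1 called members for PP121 in neurons, 0 to 1 for the day over all nuclei and 0 to 1 in progenitors, 0 to 26 for neurons against progenitors (26 without PP121 replicate 2), 2 to 24 for G2M in progenitors, and 0 to 1 for S in neurons. The day differences of RPS19, RPS21 and RPS13 in progenitors ranged from −0.0052 to 0.783, from −0.0633 to 1.01 and from −0.0462 to 0.841, each lowest without PP121 replicate 1. The member median of S neurons, −0.02, became 0.0348 with library size alone, 0.0780 when thinned and −0.112 to 0.0566 with samples left out, among them 0.01 without PP121 replicate 2. In G2M neurons the median over all genes was 0.10 under DESeq2 and −0.13 without the filter.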
